A study of Homo sapiens with 9 samples.

Results

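The mRNAs of 10 growth factor receptor tyrosine kinases were followed in SKMEL28 cells, a human melanoma line with mutant BRAF. The receptors were KIT, MET, ERBB2, ERBB3, IGF1R, INSR, FGFR1, PDGFRA, PDGFRB and EPHA2, chosen by symbol from the 48162 genes of the deposited tables, and each symbol matched 1 gene. The cells carried lentiviral hairpins and had been selected for 3 days in 1 µg/ml puromycin, in medium with 5% serum. In the shCont group the hairpin was directed against GFP, which the cells lack, in the shp16 group against p16 (CDKN2A), and in the shp16/shATR group against p16 and the kinase ATR. Each group had 3 libraries, described as technical replicates of 1 experiment, so p-values measured only the spread among these libraries.

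Receptor tyrosine kinases are cell surface proteins with an outer domain that binds a growth factor and an inner domain that phosphorylates tyrosines. Ligand binding brings receptors together in pairs, and the phosphorylated tails recruit adaptors that lead to RAS and to PI3-kinase. In melanocytes KIT supports survival and migration. In melanoma lines with mutant BRAF, signalling through receptors such as MET, ERBB3, IGF1R and PDGFRB is well known as a route around BRAF inhibition.

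Each library held between 17314662 and 23588174 counted reads. Counts were scaled by edgeR's TMM method to CPM, a gene's counts relative to the library total, which compare a gene between libraries, and the deposited FPKM values, which divide by gene length, were used to compare genes with each other. Replicate 1 of shCont and replicate 1 of shp16 stood apart from their groups. The chi-square per gene between replicate 1 of shCont and the other 2 shCont libraries was 68.5 and 83.4, against 5.15 between those 2, and for replicate 1 of shp16 it was 37.9 and 37.2, against 1.94. CDKN2A ranged from 103 to 162 CPM in shCont and from 78.1 to 99.9 in shp16, and did not pass the test between them (log2 fold change −0.48, SE 0.16, adjusted p = 0.0723 by edgeR). DESeq2 called it lower there and limma did not, and edgeR called it lower without shCont replicate 3. ATR had 45.9, 93.5 and 96.4 CPM in shCont, 83.4 to 93.5 in shp16 and 39.9 to 41.1 in shp16/shATR, so that shCont replicate 1 stood near the libraries with the ATR hairpin. It fell in shp16/shATR against shp16 by 1.12 on the log2 scale (SE 0.22, adjusted p = 0.0128), although without shp16 replicate 1, or without any 1 of the shp16/shATR libraries, that call was lost (highest adjusted p = 0.0707 over all alternatives). In shp16/shATR against shCont edgeR called both ATR and CDKN2A lower, ATR under all 19 alternatives and CDKN2A under 14 of 19. The markers of the melanocyte lineage were present in every library, with 4336 to 4765 FPKM summed over 7 genes in shCont, 2261 to 4355 in shp16 and 3468 to 4323 in shp16/shATR. PMEL, at 1109 to 3490 FPKM, held a large part of these sums. TYRP1, an enzyme of pigment synthesis, was the only 1 of these 7 genes called by edgeR with all libraries, in each pair of groups. Of all genes, 14.8% were called in shp16 against shCont, 6.22% in shp16/shATR against shp16 and 23.6% in shp16/shATR against shCont. The other 6 were not called. Without replicate 1 of both shCont and shp16, 2 of the 7 were called higher in shp16 against shCont. DESeq2 called 1 higher in shp16/shATR against shCont. TYRP1 had 121 to 145 CPM in shCont, 88.6 to 107 in shp16 and 52.8 to 55.5 in shp16/shATR. It was called lower in shp16 against shCont (−0.43, SE 0.11, adjusted p = 0.0229, kept under 14 of 20 alternatives and lost without shCont replicate 2 or 3 or shp16 replicate 1 or 3). In shp16/shATR it was lower against shp16 (−0.88, SE 0.11, adjusted p = 0.0014) and against shCont (−1.31, SE 0.11, adjusted p = 1.4e-05), under all 19 alternatives of each, and its part in the receptor results was not tested.

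Of the 10 receptors, 7 passed the filter on low counts and were tested, and KIT, PDGFRA and PDGFRB were not. A gene is described as called where the adjusted p of edgeR's quasi-likelihood test, corrected over all 15776 genes tested, was under 0.05. In shp16 against shCont, MET, EPHA2 and ERBB3 were higher, INSR and FGFR1 were lower, and ERBB2 and IGF1R were not called. Thus 3 of 7 were called higher, where 7.23% of all genes were, and 2 of 7 lower, where 7.59% were. FGFR1 had only 5 to 18 counts in each library with the p16 hairpin. Its place among the lower calls is therefore a description, and INSR alone was lower among the other 6. ERBB3 alone was called higher in shp16/shATR against shp16, beside 2.73% of all genes, and no receptor was called lower, beside 3.49%. By unadjusted p under 0.05 edgeR had 2 of the 7 lower there, while DESeq2 and limma called 0 lower after adjustment. When shp16/shATR was set against shCont, the 3 receptors called higher and the 2 called lower were those of shp16 against shCont, which shares its shCont libraries, and the shares over all genes were 10.9% and 12.7%. The median log2 fold change of the 7 receptors was 0.34, −0.07 and 0.34 in the 3 comparisons, and that of all genes −0.02, 0.00 and −0.02. Without FGFR1 the medians of the other 6 were 0.39, −0.19 and 0.52.

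Without replicate 1 of shCont the counts in the 3 comparisons were 5, 2 and 5 of 7, and the shares of all genes called grew to 25.9%, 19.9% and 33.3%. Without replicate 1 of both shCont and shp16 they were 5, 2 and 6 of 7, beside 32.7%, 26.7% and 44.3% of all genes. The receptor gained in shp16/shATR against shp16 was MET, which was lower, and the one gained against shCont was IGF1R.

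**Figure D1:**
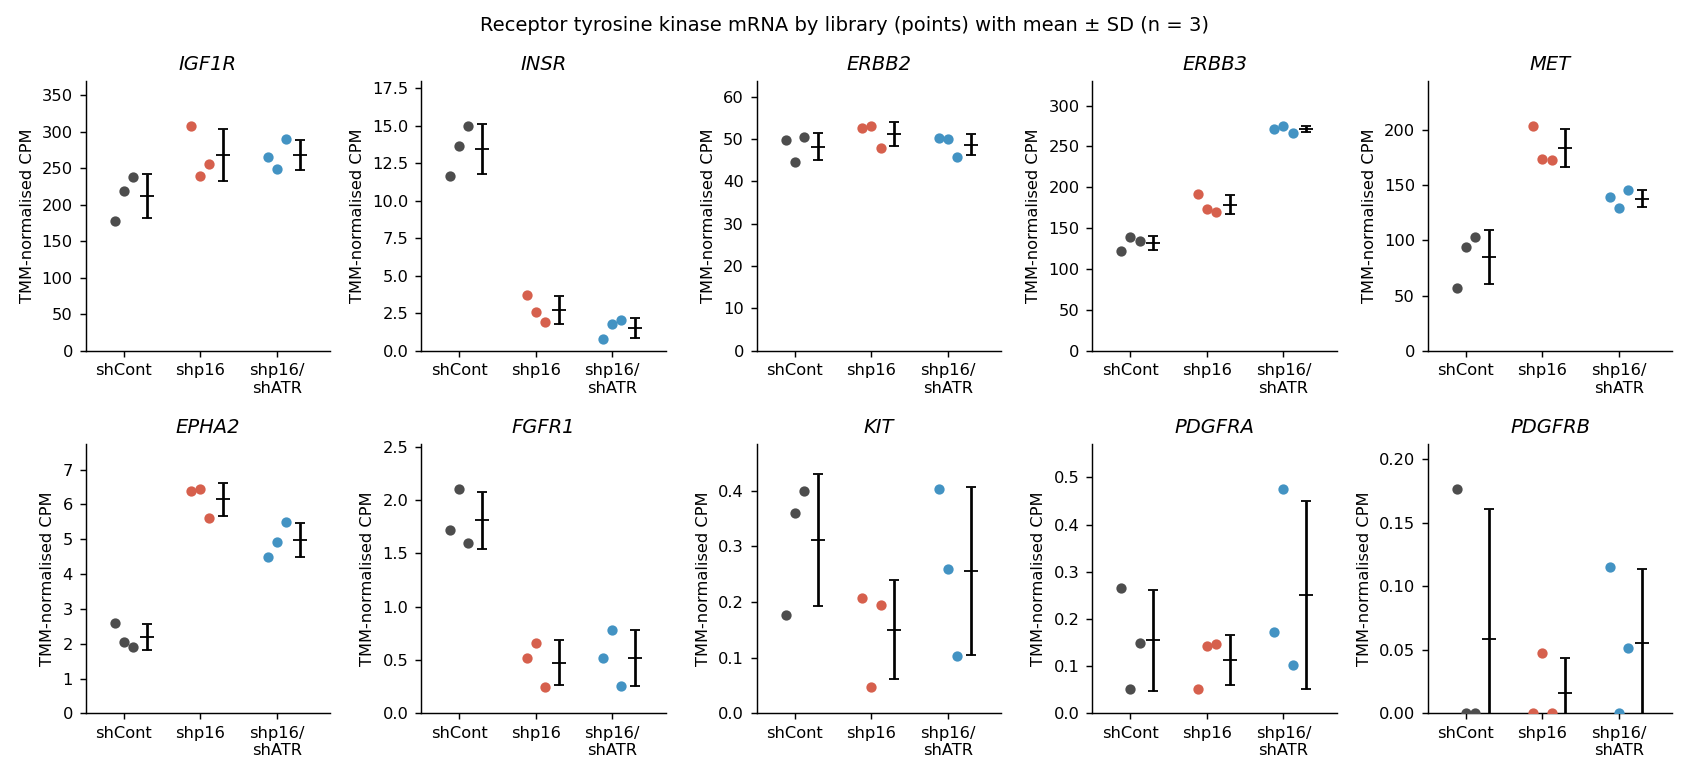
TMM-normalised CPM of the 10 receptors in each library (points, in the order of replicates 1 to 3 or libraries a to c) with the mean ± SD of the 3 libraries of shCont, shp16 and shp16/shATR. INSR and FGFR1 lay lower and MET, ERBB3 and EPHA2 higher in all libraries of both p16 hairpin groups than in any shCont library, and ERBB2 overlapped in every group.

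Markers of another cell type moved in the same comparisons as the receptors. Of 6 epithelial markers, 5 were tested, and CDH1, KRT18, KRT5 and KRT14 were called higher in both comparisons with shCont. The shares of all genes called higher were 7.23% for shp16 and 10.9% for shp16/shATR. Between the groups that carried the p16 hairpin none of the 5 was called, beside 6.22% of all genes. In that comparison 0 also passed at an unadjusted p under 0.05 and by DESeq2 or limma. With so low a share over all genes, 0 of 5 does not set these markers apart from other genes. The 6 markers summed to 5.35 to 8.90 FPKM in shCont, 18.5 to 23.3 in shp16 and 18.7 to 20.1 in shp16/shATR. KRT5, a keratin of basal epithelium, had 0 counts in the 3 shCont libraries, 39, 63 and 42 counts in shp16 and 39, 37 and 7 in shp16/shATR. It thus passed the filter on low counts only through libraries with the p16 hairpin, so its calls are a description. CDH1, which encodes E-cadherin, rose from 1.77, 2.41 and 3.00 CPM in shCont to 16.9, 18.9 and 17.7 in shp16 and 22.3, 20.1 and 22.8 in shp16/shATR, and EPCAM, at no more than 11 counts in any library, did not pass the filter. The part of these markers in the receptor results was not tested, and in bulk RNA more cells of a type and more RNA per cell cannot be told apart.

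**Figure D2:**
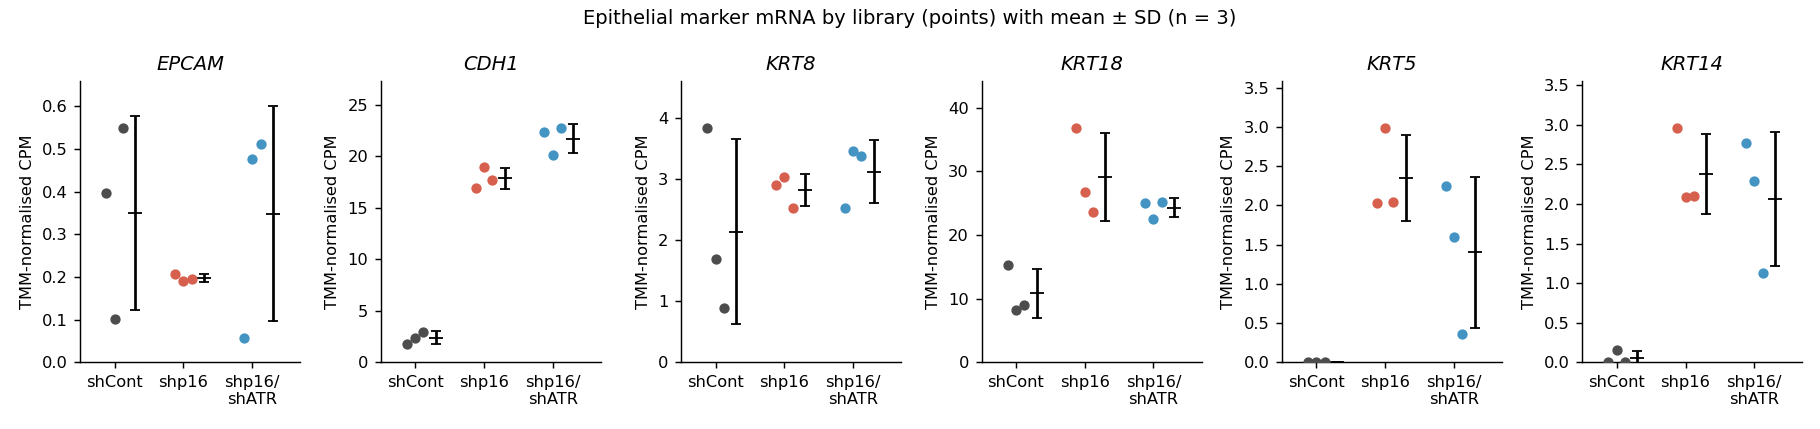
TMM-normalised CPM of 6 epithelial markers in each library (points) with the mean ± SD of the 3 libraries of each group. CDH1, KRT5, KRT14 and KRT18 lay higher in every shp16 and shp16/shATR library than in any shCont library, while EPCAM overlapped in the 3 groups.

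Markers of endothelial cells and leukocytes were scarce, while the fibroblast list rested mainly on LUM. Of its 6 genes 5 were tested, with a median log2 fold change of 1.99 in shp16 against shCont, where that of all genes was −0.02. With all libraries edgeR called 0 of the 5 there, but 3 were higher at an unadjusted p under 0.05 and 2 by DESeq2. The fibroblast list, which shares PDGFRB with the receptors, summed to 11.2 to 13.6 FPKM in shCont, 8.43 to 15.4 in shp16 and 10.1 to 10.8 in shp16/shATR, of which LUM at 26.0 to 42.9 CPM was the main part, and COL1A2, COL3A1 and DCN, none above 1.07 CPM, were called higher in shp16/shATR against shCont, each call being lost without library b of shp16/shATR or without shCont replicate 3. The endothelial genes measured, CDH5, VWF and KDR, summed to at most 0.777 FPKM, with PECAM1 not analysed here, and the leukocyte genes PTPRC and CD3E had 0 counts in every library. Their part in the receptor results was not tested.

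The levels of the receptors spanned several orders of magnitude. In shCont the order by mean FPKM was ERBB3 (22.4 ± 2.35, SD, n = 3), IGF1R (18.0 ± 3.09), MET (12.9 ± 4.02), ERBB2 (9.78 ± 0.467), INSR (1.51 ± 0.229), EPHA2 (0.551 ± 0.0749), FGFR1 (0.308 ± 0.0543), KIT (0.0608 ± 0.0245), PDGFRA (0.0233 ± 0.0153) and PDGFRB (0.00989 ± 0.0171). Neighbours among the first 4 overlapped in their libraries, as did neighbours among the last 3, while the steps from ERBB2 to INSR, EPHA2, FGFR1 and KIT did not. Among the genes tested, ERBB3 in shCont lay above 80.7% and INSR above 27.3%. The first 4 receptors made up 95.9% to 96.5% of the summed FPKM of the 10 in shCont, 97.7% to 98.0% in shp16 and 98.3% to 98.6% in shp16/shATR.

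The order changed between the groups. In shp16, MET (27.5 ± 1.13 FPKM, SD, n = 3) passed IGF1R (22.5 ± 1.85) and stood next to ERBB3 (30.0 ± 0.439), with no overlap between these 3. EPHA2 (1.54 ± 0.113) and INSR (0.301 ± 0.0873) changed places. In shp16/shATR, ERBB3 reached 45.8 ± 1.42, above 91.2% of the genes tested, while MET (20.8 ± 0.879) and IGF1R (22.7 ± 1.32) overlapped again. The share of ERBB3 in the summed FPKM of the 10 receptors came to 34.3% ± 2.22 for shCont, 32.5% ± 0.713 for shp16 and 45.5% ± 1.48 for shp16/shATR, and that of MET was 19.3% ± 3.61, 29.8% ± 0.292 and 20.6% ± 0.832. Of the summed FPKM of all 58 receptor tyrosine kinases listed, the 10 took 35.2% to 36.6% in shCont, 38.9% to 42.8% in shp16 and 46.9% to 48.0% in shp16/shATR.

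INSR and IGF1R are close relatives that bind insulin and the insulin-like growth factors and can pair with each other. INSR (ENSG00000171105) had 11.7, 13.7 and 15 CPM in shCont, 3.74, 2.56 and 1.90 in shp16, and 0.75, 1.77 and 2.05 in shp16/shATR. All shCont libraries were well above the rest, and the shp16 and shp16/shATR libraries overlapped. INSR was 4.92-fold lower in shp16 than in shCont (log2 fold change −2.30, SE 0.29, adjusted p = 0.000344) and 8.65-fold lower in shp16/shATR than in shCont (−3.11, SE 0.31, adjusted p = 3.93e-05). Relative to shp16, INSR in shp16/shATR had a log2 fold change of −0.81 (SE 0.33), which was not called (adjusted p = 0.192), although the call was made when no filter on low counts was used (adjusted p = 0.0282).

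IGF1R (ENSG00000140443) had 178, 219 and 238 CPM in shCont, 308, 239 and 256 in shp16, and 266, 250 and 290 in shp16/shATR. The lowest shp16 library stood only just above the highest shCont library. The log2 fold change was 0.34 (SE 0.14) in shp16 and 0.34 (SE 0.14) in shp16/shATR, each against shCont, with adjusted p = 0.118 and 0.0905, so neither was called. Without replicate 1 of both shCont and shp16 the second was 0.22 and was called (adjusted p = 0.00644). The log2 fold change of shp16/shATR relative to shp16 was 0.00, and 2 standard errors on either side ran from −0.27 to 0.27.

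The ratio of IGF1R to INSR within a library, in FPKM, was 11.6, 12.1 and 12 in shCont, 62.5, 70.9 and 102 in shp16, and 269, 107 and 107 in shp16/shATR. The ratio was nearly the same in the 3 shCont libraries, replicate 1 included, and no 2 groups overlapped. For each pair of groups the exact permutation test, two-sided, gave p = 0.1, the lowest possible with 3 libraries on each side (0.109 after adjustment over the 12 comparisons of ratios).

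ERBB2 and ERBB3 belong to the family of the EGF receptor. ERBB2 has an active kinase and no known ligand of its own, while ERBB3 binds neuregulins, has a very weak kinase, and signals to PI3-kinase through its partner. ERBB3 (ENSG00000065361) had 122, 139 and 134 CPM in shCont, 192, 174 and 170 in shp16, and 272, 275 and 267 in shp16/shATR. The 3 groups formed 3 separate steps. ERBB3 rose 1.35-fold in shp16 against shCont (log2 fold change 0.44, SE 0.10, adjusted p = 0.0132), 1.52-fold in shp16/shATR against shp16 (0.60, SE 0.10, adjusted p = 0.0051) and 2.06-fold in shp16/shATR against shCont (1.04, SE 0.10, adjusted p = 3.22e-05). The last 2 calls were kept under each alternative run. The first was lost when only the libraries of shCont and shp16 were fitted (0.44, adjusted p = 0.0713) and when the replicate number was added to that fit as a block (0.44, adjusted p = 0.161).

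ERBB2 (ENSG00000141736) had 49.7, 44.6 and 50.4 CPM in shCont, 52.6, 53.1 and 47.8 in shp16, and 50.2, 50.0 and 45.8 in shp16/shATR. The groups overlapped throughout. The log2 fold changes were 0.09, −0.07 and 0.01 (SE 0.10 each) in the 3 comparisons, with adjusted p of 0.621, 0.77 and 0.939, and the widest bounds at 2 standard errors were −0.28 and 0.29. The ratio of ERBB3 to ERBB2 in FPKM was 2.05, 2.6 and 2.23 in shCont, 3.04, 2.73 and 2.97 in shp16, and 4.51, 4.58 and 4.86 in shp16/shATR, with no overlap between groups (exact permutation p = 0.1 for each pair, 0.109 adjusted).

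Genes that act on ERBB3 were measured beside it. NRG1, a neuregulin, had 4.11, 3.65 and 4.30 CPM in shCont and 1.22 to 1.84 CPM in the other 6 libraries, and was called lower in shp16 (log2 fold change −1.39, SE 0.23, adjusted p = 0.0022) and in shp16/shATR (−1.42, SE 0.23, adjusted p = 0.00121) against shCont. RNF41, a ubiquitin ligase that targets ERBB3 for degradation, had 24.5 to 25.5 CPM in shCont, 29.3 to 32.0 in shp16 and 10.9 to 12.9 in shp16/shATR. It was lower in shp16/shATR against shp16 by 1.39 (SE 0.11, adjusted p = 0.000107), a call kept under all 19 alternatives. LRIG1, a membrane protein that lowers the levels of ERBB receptors and MET, fell by 1.15 (SE 0.14, adjusted p = 0.000292) in shp16 against shCont, also under all 20 alternatives.

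MET is the receptor for hepatocyte growth factor, and EPHA2 is a receptor for the membrane-bound ephrin-A ligands. MET (ENSG00000105976) had 57.3, 94.0 and 103 CPM in shCont, 204, 174 and 173 in shp16, and 139, 130 and 146 in shp16/shATR. The 3 groups did not overlap, with shp16 highest and shp16/shATR between the other two, and shCont replicate 1 was the lowest library. MET rose 2.17-fold in shp16 against shCont (log2 fold change 1.12, SE 0.18, adjusted p = 0.00197), and by 0.89 on the log2 scale without shCont replicate 1 (adjusted p = 5.61e-05). That call was lost in edgeR with the replicate number as a block (1.15, adjusted p = 0.0745), and in none of the other 19 alternatives. It was 1.63-fold higher in shp16/shATR than in shCont (0.70, SE 0.18, adjusted p = 0.016), a call lost without library a (adjusted p = 0.0539) or library c (0.0608) of shp16/shATR.

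Relative to shp16, MET in shp16/shATR had a log2 fold change of −0.41 (SE 0.18), which did not pass with all 9 libraries (adjusted p = 0.228). Without shCont replicate 1, which entered this comparison only through the shared estimate of spread, it was −0.41 and was called (adjusted p = 0.00439). It was also called when only the 6 libraries compared were fitted (adjusted p = 0.00729) and when no filter on low counts was used (0.0475). The ratio of MET to ERBB3 in FPKM was 0.418, 0.603 and 0.684 in shCont, 0.949, 0.893 and 0.908 in shp16, and 0.456, 0.420 and 0.486 in shp16/shATR. The ratio was thus highest in shp16 without overlap (exact permutation p = 0.1 against each of the other groups, 0.109 adjusted), and shp16/shATR overlapped shCont (p = 0.4, exact permutation test). HGF, the ligand of MET, did not reach 1 CPM in any library, and SPINT1, an inhibitor of the proteases that activate HGF, rose from 7.35 to 10.1 CPM in shCont to 26.6 to 30.9 in shp16 (1.72, SE 0.13, adjusted p = 1.05e-05).

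EPHA2 (ENSG00000142627) had 59, 40 and 38 counts in shCont, 123, 136 and 115 in shp16, and 78, 114 and 107 in shp16/shATR. These were 2.61, 2.06 and 1.90 CPM, then 6.39, 6.45 and 5.61, then 4.50, 4.93 and 5.48. The shCont libraries were lowest and shp16 highest, with no overlap. EPHA2 rose 2.80-fold in shp16 against shCont (log2 fold change 1.48, SE 0.19, adjusted p = 0.000344) and 2.26-fold in shp16/shATR against shCont (1.18, SE 0.19, adjusted p = 0.000988), both under each alternative run. With shp16 as the reference, shp16/shATR gave −0.30 (SE 0.17, adjusted p = 0.37), which was not called. EPHA2, MET and ERBB3 moved in the same comparisons against shCont as the epithelial markers given above, whose part was not tested.

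**Figure D3:**
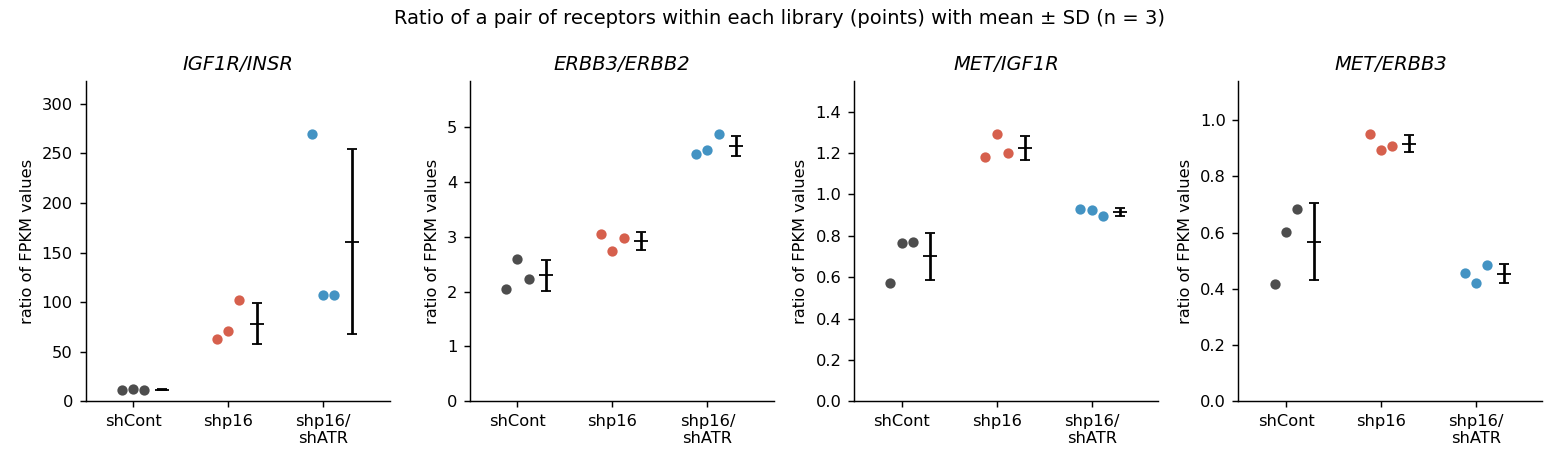
Ratios of FPKM values of 2 receptors within each library (points) with the mean ± SD of the 3 libraries of each group. The ratio of IGF1R to INSR lay between 11.6 and 12.1 in shCont and between 62.5 and 269 in the other libraries, ERBB3 to ERBB2 formed 3 separate steps, and MET to ERBB3 was highest in shp16.

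The promoters of the 3 called receptors with the largest fold changes that had an entry in RefSeq's GRCh38.p14 table are shown, as the 250 bases before the annotated start, 5′ to 3′ on the strand of the gene. MET lies at chr7:116671946-116672195 on the plus strand, EPHA2 at chr1:16156070-16156319 and INSR at chr19:7294415-7294664 on the minus strand. Capitals mark GGGCGG (a GC box) and TTTNNCGC (a loose core of the E2F motif), read on both strands.
MET: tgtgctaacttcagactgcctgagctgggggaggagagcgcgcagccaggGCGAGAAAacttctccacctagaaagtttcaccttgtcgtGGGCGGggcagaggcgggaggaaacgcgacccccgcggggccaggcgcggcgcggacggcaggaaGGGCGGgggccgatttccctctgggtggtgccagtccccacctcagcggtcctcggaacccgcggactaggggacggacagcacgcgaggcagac
EPHA2: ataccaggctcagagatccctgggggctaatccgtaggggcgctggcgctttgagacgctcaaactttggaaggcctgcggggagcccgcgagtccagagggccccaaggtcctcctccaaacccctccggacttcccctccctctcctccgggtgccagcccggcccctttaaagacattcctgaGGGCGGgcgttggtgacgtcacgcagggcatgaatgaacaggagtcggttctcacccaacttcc
INSR: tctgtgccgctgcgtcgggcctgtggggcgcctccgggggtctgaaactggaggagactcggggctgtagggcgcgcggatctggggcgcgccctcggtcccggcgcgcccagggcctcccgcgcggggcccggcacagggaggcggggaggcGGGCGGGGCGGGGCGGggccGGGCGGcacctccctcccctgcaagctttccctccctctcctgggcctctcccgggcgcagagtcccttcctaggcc
The GC box was found 2 times in MET, 1 time in EPHA2 and 4 times in INSR, and 42.6% of all 35116 promoters of this length held it. The E2F core was found in MET alone of these 3, and in 5.92% of all promoters. It was also found in IGF1R, which was not called, and in KIT, which was not tested. CANNTG (an E-box, in 61.8% of promoters) and TGANTCA (AP-1, in 6.57%) had no match in the 3. These 3 promoters thus shared the GC box, which was also found in IGF1R, KIT, PDGFRB and an entry of PDGFRA, but not in ERBB2. The box was therefore not particular to the receptors called, and a match describes letters, not binding. Of the 10 receptors, 8 had an entry, and ERBB3 and FGFR1 had none.

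FGFR1, a receptor for fibroblast growth factors, was scarce. FGFR1 (ENSG00000077782) had 39, 41 and 32 counts in shCont, 10, 14 and 5 in shp16, and 9, 18 and 5 in shp16/shATR. The groups with the p16 hairpin overlapped each other and not shCont. Since FGFR1 had so few counts in the groups with the p16 hairpin, the fitted values, 3.76-fold lower in shp16 than in shCont (log2 fold change −1.91, SE 0.43) and 3.41-fold lower in shp16/shATR (−1.77, SE 0.42), are given as a description. In the edgeR fit of all genes with no filter on low counts they were −1.89 (adjusted p = 0.000471) and −1.77 (adjusted p = 0.000786). In the filtered fits the adjusted p of the first was 0.0123, and it was 0.0548 without shp16 replicate 3 (−1.59) and 0.0636 with the replicate number as a block. Relative to shp16, shp16/shATR gave 0.14 with an SE of 0.48, a difference that could not be resolved at this depth.

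KIT, PDGFRA and PDGFRB were near the limit of detection. KIT, the receptor for stem cell factor, had 4, 7 and 8 counts in shCont, 4, 1 and 4 in shp16, and 7, 6 and 2 in shp16/shATR. Pooled over each group this was 0.306 CPM (95% Poisson interval 0.184 to 0.477) in shCont, 0.148 (0.0676 to 0.28) in shp16 and 0.25 (0.14 to 0.412) in shp16/shATR, and the intervals, which cover counting error only, overlapped. PDGFRA, a receptor for platelet-derived growth factors, had 6, 1 and 3 counts, then 1, 3 and 3, then 3, 11 and 2, with library b of shp16/shATR the highest. PDGFRB, its relative, had 4, 0 and 0 counts, then 0, 1 and 0, then 2, 0 and 1. No difference between groups was detectable for these 3 at this depth. KITLG, which encodes the ligand of KIT, was at 11.8 to 23.5 CPM over the 9 libraries and was not called in any comparison.

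**Figure D4:**
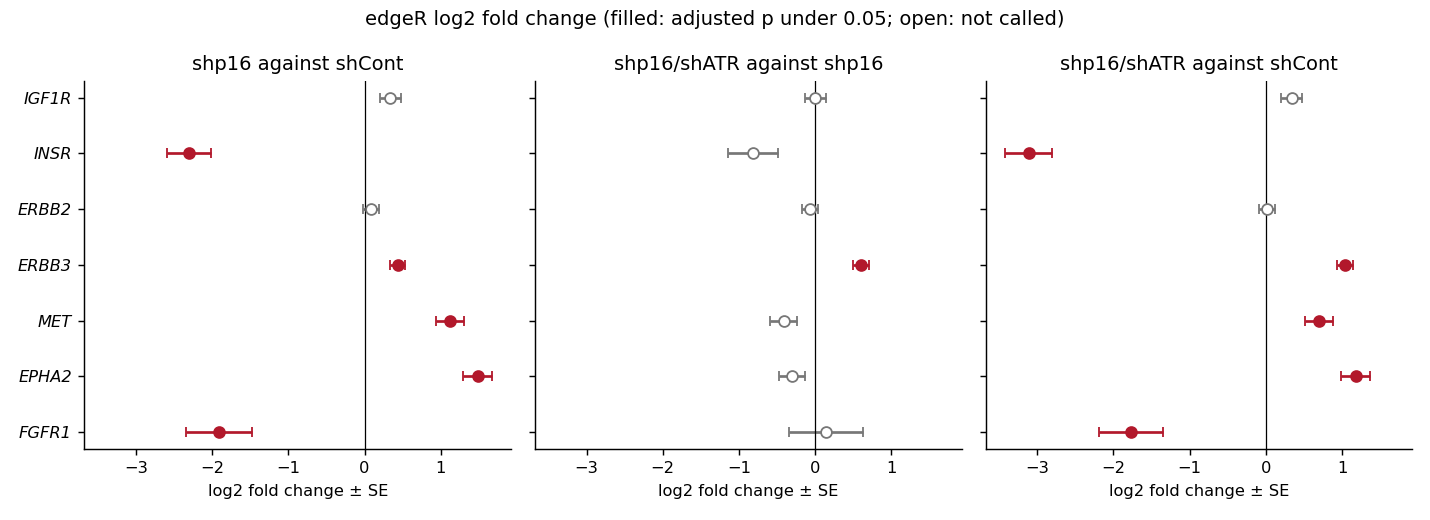
edgeR log2 fold change ± SE of the 7 receptors tested, with 1 panel for each of the 3 comparisons. Filled points were called: MET, EPHA2, ERBB3, INSR and FGFR1 in both comparisons with shCont, and ERBB3 alone between shp16/shATR and shp16. FGFR1 had few counts in the groups with the p16 hairpin.

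The ligands of the 10 receptors were mostly scarce or not called. Of 29 listed, 15 were tested. NRG3 and NRG4 were listed as neuregulins, but they bind ERBB4, which is not among the 10 receptors. Of all genes, 14.8%, 6.22% and 23.6% were called in the 3 comparisons. In shp16 against shCont, NRG3 (log2 fold change 0.53, SE 0.13, adjusted p = 0.0197) and PDGFD (0.58, SE 0.15, adjusted p = 0.023) were called higher, and NRG1, PDGFA and PDGFC lower. The calls of NRG3 and PDGFD were lost without shCont replicate 2 or shp16 replicate 2, and that of PDGFD also without shp16 replicate 1. PDGFA and PDGFC lay under 1.5 CPM in every library and are named because they were called. PDGFC reached the filter on low counts only in shCont, and PDGFA only in shCont and shp16/shATR. Their calls, also where counted among the ligands called, are therefore a description. PDGFA had 13, 13 and 17 counts in shCont, 3, 1 and 1 in shp16, and 15, 11 and 17 in shp16/shATR, so its level in shp16/shATR overlapped shCont. PDGFC had 15, 22 and 29 counts in shCont, 1 to 5 in shp16 and 3 to 7 in shp16/shATR.

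The ligands called in shp16/shATR against shp16 were FGF1 (1.28, SE 0.24, adjusted p = 0.00967) and PDGFA, both higher, and in shp16/shATR against shCont FGF1 and PDGFD were higher and NRG1 and PDGFC lower. FGF1 and PDGFA lost their calls against shp16 without shp16 replicate 2 or 3, and PDGFD its call against shCont without library a, b or c. Leaving out 1 library at a time, the ligands called were at least 3 in shp16 against shCont (without shCont replicate 2 or shp16 replicate 2), 0 in shp16/shATR against shp16 (without shp16 replicate 2 or 3) and 2 in shp16/shATR against shCont (without library b or c). The shares of all genes called in these fits were 10.1% and 8.4%, then 2.41% and 2.44%, then 14.6% and 14.9%. The remaining ligands at 1 CPM or more on average, KITLG, NRG2, NRG4, FGF2, FGF5, EFNA1, EFNA4 and EFNA5, were not called in any comparison. Among the 7 ligands of the EGF receptor, 3 were tested. TGFA fell from 7.82, 10.6 and 10.8 CPM in shCont to 3.69, 4.13 and 4.00 in shp16 (−1.30, SE 0.21, adjusted p = 0.00165), and HBEGF was called lower in shp16/shATR against shCont (−0.76, SE 0.19, adjusted p = 0.0147), a call lost without library b or c.

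The binding proteins of insulin-like growth factors, which hold or present the ligands of IGF1R, gave 4 tested genes of 7. IGFBP3 had 39.0, 39.2 and 42.4 CPM in shCont, 14.1, 14.9 and 13.8 in shp16, and 12.7, 12.5 and 14 in shp16/shATR. It fell by 1.49 (SE 0.11, adjusted p = 5.66e-06) in shp16 and by 1.62 (SE 0.11, adjusted p = 2.44e-06) in shp16/shATR against shCont, under all alternatives. IGFBP7 was called lower in shp16/shATR against shCont (−1.46, SE 0.33, adjusted p = 0.00774), while in shp16 it was −1.0 (adjusted p = 0.0594), and without shCont replicate 3 this was also called. IGFBP2 was not called against shCont with all libraries (0.90, SE 0.50, adjusted p = 0.255 in shp16, and 0.94, SE 0.50, adjusted p = 0.198 in shp16/shATR). Without shp16 replicate 1 it was called higher in both (1.36, adjusted p = 0.0134, and 0.94, adjusted p = 0.0249). No binding protein was called between shp16/shATR and shp16 with all libraries by edgeR, at an unadjusted p under 0.05, or by DESeq2 or limma (0 each), although 1 was without replicate 1 of both shCont and shp16, IGFBP7 (−0.80, adjusted p = 0.000405). With all libraries, edgeR called 14.8%, 6.22% and 23.6% of all genes in the 3 comparisons. Without replicate 1 of both shCont and shp16 the share in shp16/shATR against shp16 was 26.7%.

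Adaptors and proximal effectors link the receptors to RAS, PI3-kinase and STAT signalling, and 27 of 30 were tested. In shp16 against shCont 5 were called, all higher: GAB2, PIK3R3, SHC4, STAT3 and PLCG1. Over all genes 14.8% were called there. GAB2, a docking protein, had 102, 127 and 133 CPM in shCont, 242, 196 and 194 in shp16, and 114, 114 and 132 in shp16/shATR. It rose by 0.80 (SE 0.13, adjusted p = 0.0021) and fell by 0.81 (SE 0.13, adjusted p = 0.00503) in shp16/shATR against shp16, and shp16/shATR overlapped shCont. STAT3 was at 63.1 to 78.0 CPM in shCont, 89.5 to 109 in shp16 and 67.3 to 69.2 in shp16/shATR, and was called higher and then lower in the same 2 comparisons, which share the shp16 libraries. Without shp16 replicate 1 or 2 the calls of STAT3, PIK3R3 and SHC4 against shCont were lost.

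In shp16/shATR against shp16, GRB2 (−0.47, SE 0.10, adjusted p = 0.015) was called lower along with GAB2 and STAT3, and SHC1 (0.54, SE 0.09, adjusted p = 0.00669) and PIK3R3 (0.53, SE 0.14, adjusted p = 0.0421) higher. GRB2 carries the exchange factor SOS to phosphorylated receptors, SHC1 is an adaptor that binds them, and PIK3R3 is a regulatory subunit of PI3-kinase. Against shCont 6 were called in shp16/shATR, SHC1, SHC4, PIK3CB, PIK3CD and PIK3R3 higher and GRB2 lower. Of all genes, 6.22% and 23.6% were called in these 2 comparisons. These counts moved with single libraries. Between shp16/shATR and shp16 the calls of GRB2, STAT3 and PIK3R3 were lost without shp16 replicate 2 or library a or b of shp16/shATR, and that of SHC1 without library b. In shp16 against shCont 12 were called without shCont replicate 1 (25.9% of all genes) and 2 without shp16 replicate 1 or 2 (8.95% and 8.4%). Between shp16/shATR and shp16 they ranged from 1 without library b of shp16/shATR (1.81%) to 8 without shCont replicate 1 (19.9%). In shp16/shATR against shCont the lowest was 3, without library a, b or c (14.5%, 14.6% and 14.9%).

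Of 24 inhibitors and ubiquitin ligases, 22 were tested. In shp16 against shCont, SPINT1, LRIG3 (0.75, SE 0.14, adjusted p = 0.00524) and GRB10 (0.37, SE 0.10, adjusted p = 0.0265) were called higher and LRIG1, SPRY4 (−0.55, SE 0.13, adjusted p = 0.0159) and SPRY1 (−0.50, SE 0.14, adjusted p = 0.0381) lower. GRB10 binds INSR and IGF1R and dampens their signal, and the Sprouty proteins SPRY1 and SPRY4 are feedback inhibitors of RAS signalling. RNF41 was the single gene of the list called between shp16/shATR and shp16, where 6.22% of all genes were. Against shCont, SPINT1, LRIG3, CBLB and SPRED1 were higher and LRIG1, SPRY1, SPRED2 and RNF41 lower in shp16/shATR. Several of these calls were lost when 1 library was left out: GRB10 and SPRY1 in shp16 without shCont replicate 2 or any shp16 library, SPRY4 without shCont replicate 2 or shp16 replicate 2 or 3, and LRIG3, CBLB, SPRED1 and SPRED2 in shp16/shATR without library a, b or c. The 3 counts of 6, 1 and 8 went to 10, 7 and 12 without shCont replicate 1, and the first and last fell to 3 without shCont replicate 2 and without library a of shp16/shATR, among others. Over all genes the shares called went from 14.8%, 6.22% and 23.6% to 25.9%, 19.9% and 33.3%, and the first and last fell to 10.1% and 14.5%.

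**Figure D5:**
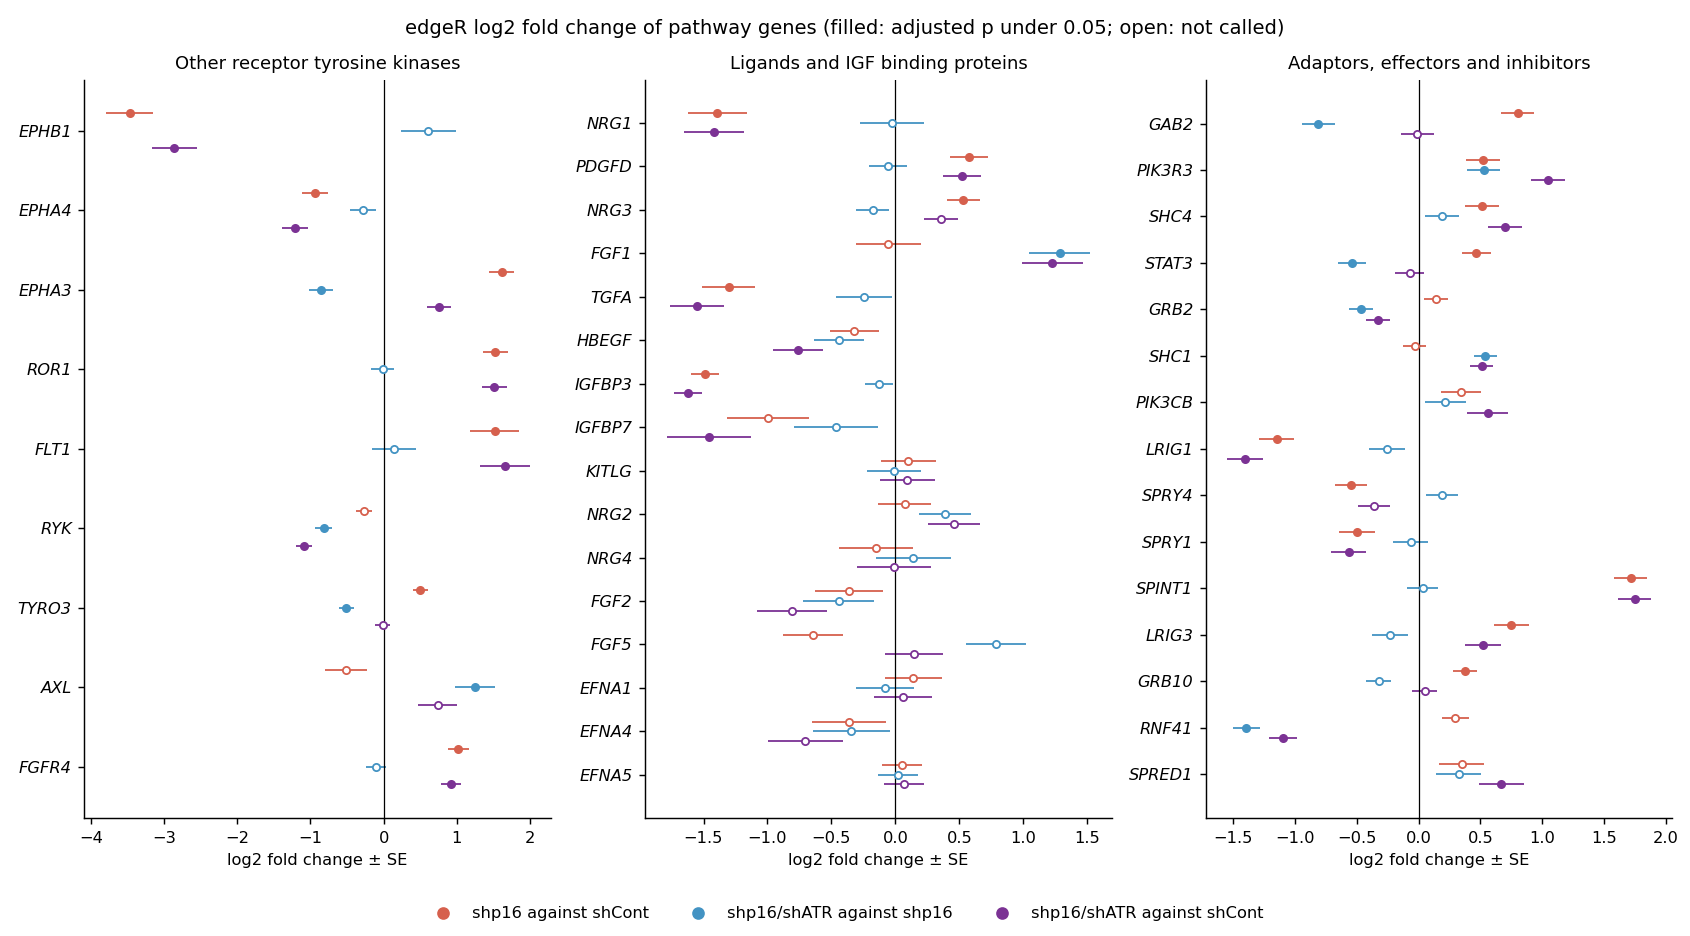
edgeR log2 fold change ± SE of other receptor tyrosine kinases, ligands and binding proteins, and adaptors, effectors and inhibitors in the 3 comparisons (colours), with filled points called. EPHB1, IGFBP3 and LRIG1 were lower and SPINT1, ROR1 and FGFR4 higher in both comparisons with shCont, and RNF41 was lower in both comparisons of shp16/shATR.

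Among the other 48 receptor tyrosine kinases, 23 were tested, and their median log2 fold changes were 0.28, −0.03 and 0.28. In shp16 against shCont 9 were called higher and 2 lower, beside 7.23% and 7.59% of all genes. EPHA3, an ephrin receptor like EPHA2, rose from 5.83, 8.22 and 9.59 CPM in shCont to 23.6, 23.6 and 25 in shp16 (1.61, SE 0.17, adjusted p = 8.83e-05). EPHB1 fell from 8.75, 7.45 and 7.99 CPM to 0.519, 0.664 and 0.975 (−3.47, SE 0.33, adjusted p = 3.96e-05), and FGFR4, a relative of FGFR1, rose by 1.02 (SE 0.14, adjusted p = 0.000615). In shp16/shATR against shp16, AXL (1.25, SE 0.27, adjusted p = 0.0208) was higher and RYK (−0.82, SE 0.11, adjusted p = 0.00215), EPHA3 and TYRO3 were lower, a count of 4 that ranged down to 1 without library c of shp16/shATR, where the calls of AXL, EPHA3 and TYRO3 were lost. Over all genes the share called in that comparison was 6.22%, and 2.3% without library c. AXL also lost its call without shp16 replicate 2 or 3 or library b, and kept it under 14 of 19 alternatives. Against shCont 8 were higher and 3 lower in shp16/shATR, beside 10.9% and 12.7% of all genes.

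The genes whose log2 CPM followed each called receptor most closely over the 9 libraries were listed as a description, since the 3 groups alone set most of such a likeness. For ERBB3 they were SQLE (Pearson r = 0.995) and SMIM13 (0.994), where SQLE encodes squalene epoxidase of cholesterol synthesis. For MET they were PAWR (0.994) and KREMEN1 (0.993), for EPHA2 HMGN2 (0.986) and ATP10A (0.983), for INSR SLCO2B1 (0.984) and GPR161 (0.983), and for FGFR1 GEM (0.958) and SDCCAG8 (0.956). SQLE had means of 69.7, 124 and 232 CPM in shCont, shp16 and shp16/shATR, and ERBB3 of 131.9, 179 and 271.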

How the data were processed

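Total RNA was sequenced in 9 libraries of SKMEL28 cells by Novogene. The submitters' processing notes name STAR 2.6.1, DESeq2 2 and GRCh38, but chromosome 1 genes of the table end at base 249231242, past base 248937099, where RefSeq's GRCh38.p14 genes end, so table coordinates were not used. The authors deposited unnormalized read counts per gene and FPKM values. The shp16/shATR count columns share 1 name and were called libraries a, b and c. Strand use is not given in the sources used here.

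Counts were tested with edgeR 4.0.16 (TMM, filterByExpr, quasi-likelihood, all 9 libraries in 1 fit of 3 groups) in R 4.3.3, with Benjamini-Hochberg adjustment over 15776 genes and a threshold of 0.05. SE is the log2 fold change divided by the root of F. The procedure was checked on simulated data. Alternatives used DESeq2 1.42.0, limma 3.58.1 on log2(FPKM + 1 or 0.1), other scalings and filters, fewer libraries and a replicate block. No duplicate library was found. Replicate numbers did not pair the libraries.

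The members and lists were chosen with earlier results of these data known. Besides the 10 receptors, the text names up to 3 list genes per direction with adjusted p under 0.05, mean of 1 CPM or more and no overlap of groups, ligands at 1 CPM or more, and the 2 genes most correlated with each called receptor (mean of 5 CPM or more, log2 with 0.1 added). Other called list genes (such as PDGFA, PDGFC, PLCG1, PIK3CD, CBLB and SPRED2) and the pairs for ratios were chosen after their values were seen. EFNA3 and PIK3R2 each had 2 gene entries. Promoters came from RefSeq.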

Additional observations from a re-analysis of the deposited data

How the results depend on the processing

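Over 20 alternatives, the log2 fold changes of the 7 receptors gave 403 values, of which 380 kept their direction and side of the threshold. Of 5 receptors called in shp16 against shCont, 4 to 5 were called without each library in turn, 1 to 2 of 1 in shp16/shATR against shp16 (2 without shCont replicate 1), and 4 to 5 of 5 in shp16/shATR against shCont. Over these fits the shares of all genes called ran from 8.29% to 25.9%, from 1.81% to 19.9% and from 14.5% to 33.3%. In shp16/shATR against shp16 the count was 3 without a filter on low counts (4.39% of all genes called, against 6.22% in the reported fit), 2 when only the groups compared were fitted (18.9%) and 2 without replicate 1 of both shCont and shp16 (26.7%), an alternative chosen after seeing the data. Replicate numbers were shared by the groups, but the deviations of same-numbered libraries correlated from −0.303 to 0.289, so no pairing was assumed. With the number as a block, edgeR called 2 receptors in shp16 against shCont, INSR and EPHA2, and lost MET, ERBB3 and FGFR1, with 2.79% of all genes called against 14.8%. Limma on log2(FPKM + 1) with the block was added after seeing the data, because the shp16/shATR count columns carry no numbers, while limma without the block was planned. With the block limma called 5, 1 and 5, beside 9.59%, 3.05% and 18.9% of all genes. The cause was not tested. Values that changed sign were near 0 and uncalled: IGF1R in shp16/shATR against shp16 (−0.011 with no filter, −0.075, −0.03 and −0.06 without shp16 replicate 2, shp16 replicate 3 and library c, up to 0.112 without shp16 replicate 1), FGFR1 there (−0.17 without shp16 replicate 3, −0.31 without library b, up to 0.464 without shp16 replicate 2), and ERBB2 in shp16/shATR against shCont (−0.0059 by upper-quartile scaling, −0.0399, −0.0055 and −0.0047 without shCont replicate 2, library a and library b, up to 0.0576 without library c). Upper-quartile scaling moved the share of calls that were higher from 48.8% to 38.5% in shp16 against shCont and from 43.8% to 54.2% in shp16/shATR against shp16, over all genes. On log2(FPKM + 1), which understates low genes, INSR, FGFR1 and EPHA2 moved by over 1.5 times without losing a call, down to −0.94, −0.28 and 0.71 in shp16 against shCont. Requiring 10 counts in every library left out FGFR1. Depth limited KIT, PDGFRA and PDGFRB.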
